A study of Homo sapiens with 4 samples.

Results

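The 2 arrays labelled replicate B were compared with the 2 arrays labelled replicate A, over the 2 transfections of the study, so that all 4 of its 4 arrays took part. The cells were MCFDCIS, an established human breast cancer line with basal features. Replicate B held 1 culture transfected with siRNA against Slug (the product of SNAI2, a repressor of epithelial genes) and 1 with a control siRNA, and is named biological replicate 2 in the labels. Replicate A held the same pair of transfections and is named biological replicate 1. All 4 cultures carried the same line, were lysed 72 hours after transfection at a stated confluence of about 70%, and gave total RNA for Illumina bead arrays. The labels do not say whether the letters mark separate days or thawed stocks. They place the A arrays and the B arrays at separate positions of 1 chip, so culture and chip position cannot be told apart in any difference given here. The p-values measure only the spread between these arrays.

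A dividing cell passes from G1 into S phase when cyclin E and its kinase release E2F transcription factors, which switch on the genes for origin licensing, the replicative helicase, DNA polymerases and nucleotide supply. Genes of G2 and mitosis follow later in the cycle and are driven through other promoter elements. Breast epithelial cells with basal features can also switch between adhesion to basement membrane and a squamous programme of cornified envelope proteins. The labels give the stated purpose of the study as the effect of Slug knockdown, and the comparison of replicates asks which of these growth and differentiation genes differed between cultures whatever the siRNA.

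Between 39.8% and 40.8% of the 47323 probes of an array were detected (detection p under 0.05), with a median of 20 to 21 beads per probe. Across probes, the B and A arrays with Slug siRNA had a Pearson r of 0.991 in log2 intensity and those with control siRNA 0.989, against 0.981 to 0.988 between arrays of different transfections. Of 7 marker genes of the line measured, KRT5, KRT14, CDH3, EPCAM and ITGB4 were detected on all 4 arrays, while the hormone receptor genes ESR1 and PGR were detected on none. Values below are normalized log2 intensities, always with the Slug siRNA array before the control siRNA array, and a difference is B minus A, fitted with transfection as a term and given with its model standard error (n = 2 arrays per replicate letter).

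At an adjusted p under 0.05, 0 of 11200 genes (0%) differed between replicates B and A by limma, and the lowest adjusted p was 0.116. Before adjustment, p was under 0.05 for 902 genes higher in B (8.05%) and for 961 lower (8.58%). The fit has 1 residual degree of freedom, and the count depended on how the spread was estimated. When the prior variance was allowed to follow the mean signal, 471 genes were higher in B (4.21%) and 604 were lower (5.39%) at an adjusted p under 0.05. For the Slug siRNA term of the same fit, 361 genes (3.22%) passed the threshold. Because no gene passed in the fit used here, the genes below are described by their values, and each list's count under the variance trend is given as an alternative, to be read against these shares of all genes. Where the medians of a list within the single transfections lay over 1.5 times from its fitted median, they are given beside it.

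The difference between replicates had the same sign with Slug siRNA and with control siRNA for 7348 of the 11200 genes: 3757 were higher in B in both (33.5%) and 3591 were lower in both (32.1%). A total of 4 genes were at least 2-fold higher in B in both transfections (0.0357%) and 10 at least 2-fold lower in both (0.0893%). The median size of the difference between replicates was 0.161 on the log2 scale, against 0.174 for Slug siRNA minus control siRNA. The gap in B minus A between the transfections, divided by 2 to put it on the same scale, had a median size of 0.094. That gap holds array noise and any interaction, so part of both sizes is noise. The median over all genes was 0.01, so lists of genes are read against a value near 0. Counts of list members with the same sign in both transfections are read against the 33.5% and 32.1% of all genes.

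**Figure D1:**
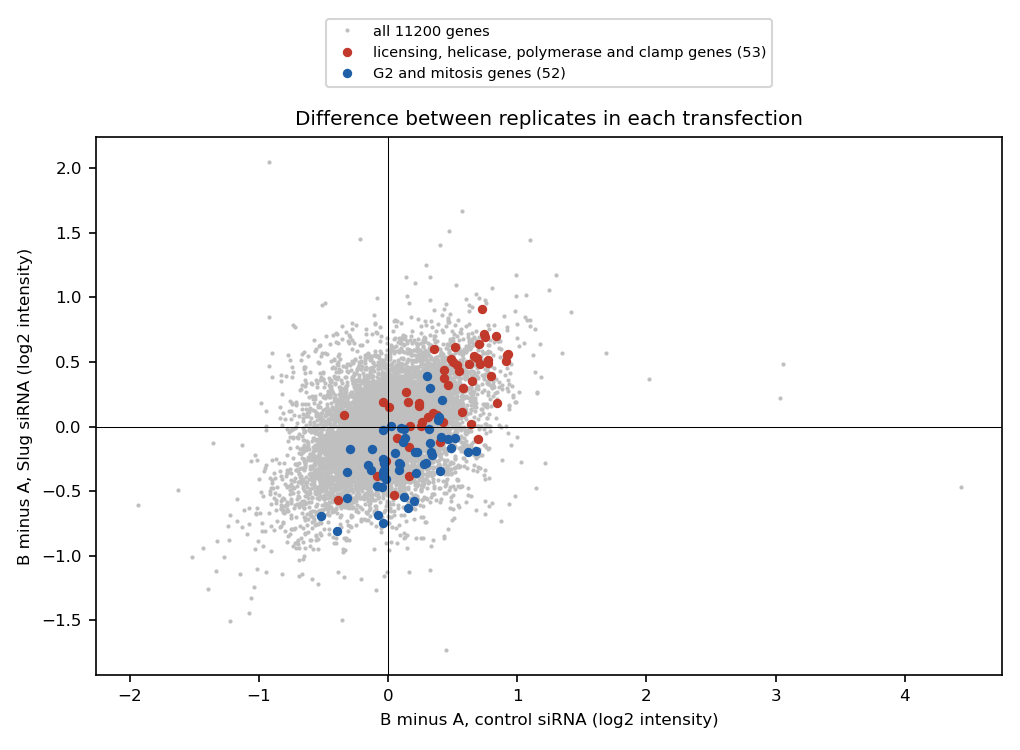
Each point is 1 gene, with B minus A in control siRNA cells on the horizontal axis and in Slug siRNA cells on the vertical axis (log2 intensity). Red points are the 53 licensing, helicase, polymerase and clamp genes, with 20 of 27 licensing and helicase genes and 21 of 26 polymerase and clamp genes to the upper right of 0, and blue points are the 52 genes of G2 and mitosis, of which 46 lie below 0 in Slug siRNA cells and 33 above 0 in control siRNA cells.

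Most genes of DNA replication were higher in replicate B in both transfections, although none passed the adjusted threshold. The largest difference among licensing and helicase genes was that of TIPIN, a replication fork protein, at 0.82 on the log2 scale. The helicase subunit gene MCM2 read 9.55 and 9.46 on the B arrays, against 8.85 and 8.63 on the A arrays. Both B arrays were above both A arrays, with a difference of 0.77 ± 0.14 (SE, limma adjusted p = 0.142), a 1.70-fold higher level. Over the 9 alternative settings that give a test, its adjusted p ran from 5.88e-09 to 0.669 with the sign kept.

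PCNA, the sliding clamp that tethers DNA polymerases, read 11.11 and 10.83 on the B arrays, against 10.47 and 10.12 on the A arrays. The B arrays were again both above the A arrays, and the difference was 0.67 ± 0.13 (SE, limma adjusted p = 0.149). Its adjusted p ran from 1.84e-08 to 0.669 over the same alternatives.

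CCNE1, which encodes the cyclin E that starts S phase, read 8.50 and 7.51 on the B arrays, against 7.86 and 6.46 on the A arrays. Here the replicates overlapped, because the B culture with control siRNA lay below the A culture with Slug siRNA, although B was higher within each transfection. The difference was 0.85 ± 0.15 (SE, limma adjusted p = 0.142), and the adjusted p ran from 1.24e-06 to 0.754 over the alternatives. POLE2, a subunit of DNA polymerase epsilon, read 9.61 and 8.98 on the B arrays, against 9.22 and 8.18 on the A arrays. It overlapped in the same way, with a difference of 0.59 ± 0.15 (SE, limma adjusted p = 0.175) and adjusted p from 1.43e-05 to 0.765 over the alternatives. In a bulk culture, more cells in S phase and more of these RNAs per cell cannot be told apart.

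**Figure D2:**
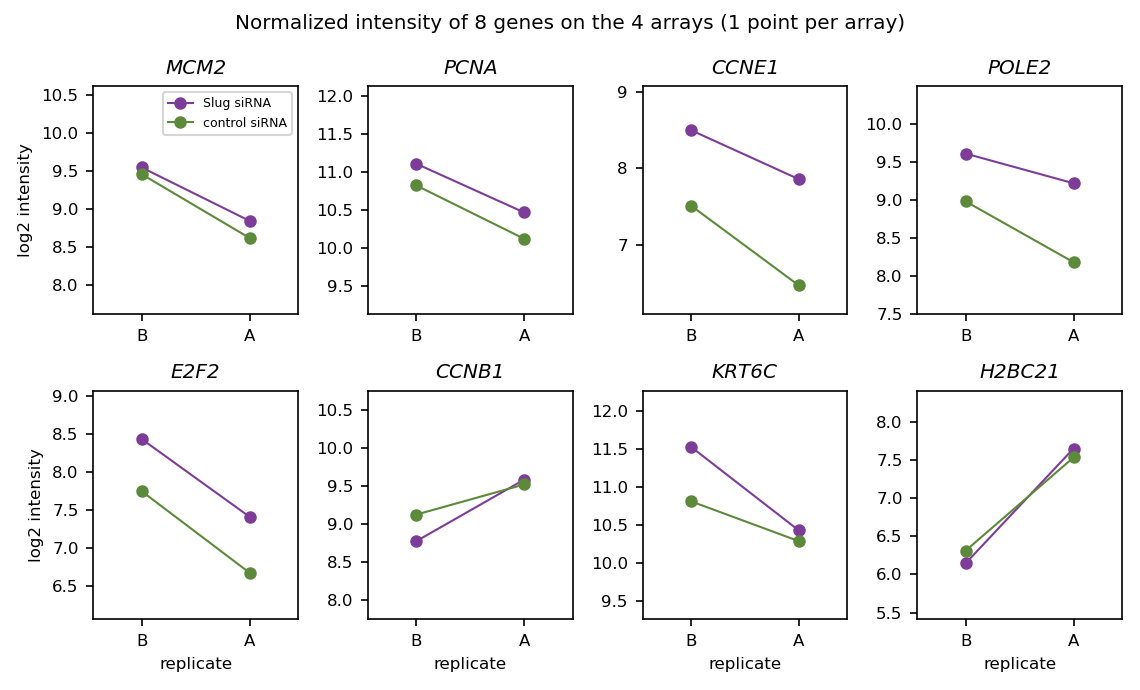
Normalized log2 intensity of 8 genes on the 4 arrays, 1 point per array, with replicate B left of replicate A and a line joining the 2 arrays of each transfection. The lines of MCM2, PCNA, CCNE1, POLE2, E2F2 and KRT6C slope down to A in both transfections, and those of CCNB1 and H2BC21 slope up.

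Promoters were searched for the letters bound by E2F factors. RefSeq start sites on GRCh38.p14 gave 300 bases each, from 250 before the start to 50 after it, for 67 of the 88 genes named by rule. An E2F match was any of TTTCCCGC, TTTCGCGC, TTTGCCGC or TTTGGCGC on either strand. Such letters stood in 12 of 24 promoters of licensing and helicase genes (50%), 7 of 21 of polymerase and clamp genes (33.3%) and 6 of 14 of G1 to S regulators (42.9%). Over all genes kept the share was 5.31% of 9034 promoters, and over all promoters in the reference 3.27% of 27305. The 4 promoters below hold a match, shown in capitals, and belong to genes higher in B: MCM2 at chr3:127598161-127598460 (plus strand), TIPIN at chr15:66356636-66356935 (minus strand), POLE2 at chr14:49688165-49688464 (minus strand) and E2F2 at chr1:23531184-23531483 (minus strand). Each is written from 5′ to 3′ along its gene.
MCM2: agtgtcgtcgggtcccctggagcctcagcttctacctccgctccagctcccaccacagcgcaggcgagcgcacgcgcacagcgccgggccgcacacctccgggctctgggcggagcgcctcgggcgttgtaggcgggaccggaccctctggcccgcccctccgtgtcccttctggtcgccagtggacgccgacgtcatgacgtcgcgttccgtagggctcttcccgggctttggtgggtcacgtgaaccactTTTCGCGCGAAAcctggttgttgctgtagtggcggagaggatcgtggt
TIPIN: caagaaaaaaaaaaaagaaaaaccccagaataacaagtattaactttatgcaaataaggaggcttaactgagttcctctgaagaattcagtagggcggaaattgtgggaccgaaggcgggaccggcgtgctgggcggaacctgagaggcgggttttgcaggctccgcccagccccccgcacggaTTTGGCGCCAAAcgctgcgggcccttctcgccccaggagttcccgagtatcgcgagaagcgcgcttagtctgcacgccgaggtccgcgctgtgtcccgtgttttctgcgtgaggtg
POLE2: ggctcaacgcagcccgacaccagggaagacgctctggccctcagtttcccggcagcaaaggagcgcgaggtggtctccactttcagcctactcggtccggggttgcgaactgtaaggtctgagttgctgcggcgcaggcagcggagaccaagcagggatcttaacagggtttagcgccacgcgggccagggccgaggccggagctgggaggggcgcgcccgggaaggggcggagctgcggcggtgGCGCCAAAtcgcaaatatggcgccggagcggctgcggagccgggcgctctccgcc
E2F2: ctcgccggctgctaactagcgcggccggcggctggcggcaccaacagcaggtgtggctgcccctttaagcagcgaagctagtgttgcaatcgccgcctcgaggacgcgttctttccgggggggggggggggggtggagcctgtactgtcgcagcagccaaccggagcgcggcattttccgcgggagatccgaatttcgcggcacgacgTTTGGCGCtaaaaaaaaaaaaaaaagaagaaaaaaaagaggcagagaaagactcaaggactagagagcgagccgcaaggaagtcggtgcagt
In MCM2 and TIPIN the letters match on both strands, overlapping to give 12 capitals. In POLE2 the match is on the other strand. No match to these letters was found in the windows of PCNA and CCNE1. The shares count every measured list member with a promoter, whatever its difference between replicates. They describe the lists and not that difference. A match describes the letters only and is not a measured binding site.

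Of 27 measured genes of origin licensing and the replicative helicase, 20 were higher in B in both transfections and 4 were lower in both, and the median difference was 0.49. Over all genes the shares were 33.5% and 32.1%, and the median 0.01. At an unadjusted p under 0.05, 16 were higher and 1 was lower (8.05% and 8.58% of all genes), and under the variance trend 15 were higher and 0 lower (4.21% and 5.39%). Without background correction the median of the list was 0.29. The largest difference was in TIPIN, which steadies stalled replication forks and read 8.39 and 7.82 on the B arrays, against 7.48 and 7.10 on the A arrays. Its B arrays were both above its A arrays, by 0.82 ± 0.14 (SE, limma adjusted p = 0.142).

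The helicase ring genes MCM3, MCM4, MCM5 and MCM6 were higher by 0.39, 0.65, 0.73 and 0.57, and MCM7 by 0.19. The GINS subunits that complete the helicase were split. GINS2, GINS3 and GINS4 were higher by 0.74, 0.61 and 0.72, while GINS1 was not above background on either B array and was at least 1.15-fold lower in B. GINS1 was kept only because both A arrays detected it, so its direction was fixed by that rule. MCM10 and CDC45, which activate the helicase, were higher by 0.71 and 0.50, and so was MCMBP, a binding partner of the MCM ring, at 0.75. The origin recognition subunits were split: ORC1 differed by 0.49 and ORC3 by 0.44, against -0.24 for ORC6 and -0.16 for ORC2. The loader CDC6 was -0.10 in Slug siRNA cells and 0.69 in control siRNA cells, but was detected on only 1 B and 1 A array, which held different transfections. GMNN, whose product blocks relicensing, was higher by 0.60.

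Among 26 genes for replicative polymerases, the clamp and strand processing, 21 were higher in B in both transfections and 0 were lower in both. The median difference was 0.28, with 0.18 in Slug siRNA cells and 0.41 in control siRNA cells, and under the variance trend 9 were higher and 0 lower. FEN1, the nuclease that trims Okazaki fragments, read 11.20 and 11.19 on the B arrays, against 10.70 and 10.42 on the A arrays, a difference of 0.64 ± 0.14 (SE, limma adjusted p = 0.158) with no overlap. The clamp loader subunits RFC2, RFC3, RFC4 and RFC5 were higher by 0.48, 0.60, 0.50 and 0.55, but the large subunit RFC1 read 0.09 in Slug siRNA cells and -0.34 in control siRNA cells. The primase genes PRIM1 and PRIM2 were higher by 0.43 and 0.20. The catalytic subunit of polymerase delta, POLD1, differed by 0.02 in Slug siRNA cells and 0.64 in control siRNA cells.

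Genes that supply deoxynucleotides had a median difference of 0.28 over 10 measured members, 7 of them higher in B in both transfections and 0 lower in both. Within transfections the median was 0.29 in Slug siRNA cells and 0.45 in control siRNA cells, and the trend count was 4 higher and 0 lower. TK1, the thymidine salvage kinase, read 10.21 and 10.12 on the B arrays, against 9.64 and 9.35 on the A arrays. Its arrays did not overlap, and the difference was 0.67 ± 0.14 (SE, limma adjusted p = 0.149). RRM2, the S-phase subunit of ribonucleotide reductase, was higher by 0.48, while its partner RRM1 differed by 0.12. DUT, which removes dUTP, was higher by 0.52 on the probe used, but 1 of its other 2 probes gave -0.64.

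The regulators of the G1 to S step included E2F2, an activator of S-phase genes, which was among the 4 genes at least 2-fold higher in both transfections. It read 8.43 and 7.74 on the B arrays, against 7.41 and 6.67 on the A arrays, a difference of 1.05 ± 0.13 (SE, limma adjusted p = 0.116), and both B arrays were above both A arrays. Of 15 measured regulators, 10 were higher in both transfections and 2 lower in both, with a median of 0.26 and a trend count of 7 higher and 0 lower. RBL1, the pocket protein p107, was 0.56 in Slug siRNA cells and 1.12 in control siRNA cells, and the phosphatase gene CDC25A was higher by 0.57. E2F1 differed by 0.11 and E2F3 by -0.25.

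Chromatin genes of S phase had a median of 0.33 over 13 members, of which 10 were higher in both transfections and 0 lower in both, with a trend count of 6 higher and 0 lower. CDCA7, needed for DNA methylation, differed by 0.57 ± 0.14 (SE, limma adjusted p = 0.166), UHRF1, which recognises hemimethylated DNA, by 0.56 ± 0.14 (SE, limma adjusted p = 0.171), and CHAF1B, a subunit of the histone chaperone CAF-1, by 0.54. Of 20 DNA repair genes, 14 were higher in both transfections and 1 was lower in both, with a median of 0.34 and a trend count of 6 higher and 0 lower. The nuclease gene EXO1 read 9.51 and 9.38 on the B arrays, against 8.97 and 8.52 on the A arrays, a difference of 0.70 ± 0.15 (SE, limma adjusted p = 0.149) without overlap. UNG, which removes uracil from DNA, was higher by 0.66 on the probe used and differed by -0.25 on a dimmer one. CHEK1, the kinase of the replication checkpoint, was higher by 0.53 and BRCA1 by 0.09.

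Histone genes were split in direction. Of 12 measured, 5 were higher in B in both transfections and 5 lower in both, and under the variance trend 2 were higher and 4 lower. H2BC21, a core histone H2B gene, was the lowest of the genes named by rule and read 6.15 and 6.31 on the B arrays, against 7.65 and 7.54 on the A arrays. Both B arrays were below both A arrays, 2.58-fold lower in B, and the difference was -1.37 ± 0.14 (SE, limma adjusted p = 0.116). H2BC5, H2AC18 and H2AC6 were lower, at -0.54, -0.53 and -0.51, while H4C3 was higher by 0.44. The list also holds H2AX and H2AZ1, made outside S phase too, at 0.09 and 0.29.

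The median of G2 and mitosis genes had opposite signs in the 2 transfections. Their median difference over 52 measured members was -0.05, made of -0.24 in Slug siRNA cells, where 46 were lower in B, and 0.12 in control siRNA cells, where 33 were higher. In both transfections 6 were higher (11.5%) and 19 lower (36.5%), against 33.5% and 32.1% of all genes. Under the variance trend 1 was higher and 5 were lower (4.21% and 5.39% of all genes). Whether the difference depends on the siRNA could not be tested, since no residual degree of freedom is left.

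CCNB1, the mitotic cyclin B1, read 8.78 and 9.13 on the B arrays, against 9.59 and 9.52 on the A arrays. Both B arrays were below both A arrays, with a difference of -0.60 ± 0.16 (SE, limma adjusted p = 0.173). ASPM, a spindle pole protein, read 9.41 and 9.87 on the B arrays, against 10.10 and 10.38 on the A arrays, a difference of -0.60 ± 0.14 (SE, limma adjusted p = 0.158) without overlap. The kinetochore genes CENPF and CENPE were -0.55 in Slug siRNA cells and -0.32 in control siRNA cells for CENPF, and -0.69 in Slug siRNA cells and -0.08 in control siRNA cells for CENPE. The mitotic kinase gene PLK1 was -0.58 in Slug siRNA cells and 0.20 in control siRNA cells, and MKI67, the gene of the proliferation marker Ki-67, was -0.17 in Slug siRNA cells and -0.29 in control siRNA cells, with the B array of Slug siRNA cells below detection. At the other end, MAD2L1 of the spindle checkpoint was higher by 0.31 and STMN1, a regulator of microtubules, by 0.35.

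The promoters of these genes held a second set of letters. The cell cycle homology region, searched as TTTGAA or TTCGAA on either strand, stood in 35 of 46 (76.1%), against 12.1% over all genes kept and 16.8% over all promoters in the reference. CCAAT, searched on both strands, also stood in 76.1%, against 37.0% over all genes kept. E2F letters stood in 4 of 46 (8.70%). These shares too count measured members whatever their difference between replicates. The 3 motifs were searched separately, so matches of different motifs may share bases. The promoter of ASPM at chr1:197146620-197146919 (minus strand) is shown with the homology region in capitals, which reads TTTGAA on the other strand.
ASPM: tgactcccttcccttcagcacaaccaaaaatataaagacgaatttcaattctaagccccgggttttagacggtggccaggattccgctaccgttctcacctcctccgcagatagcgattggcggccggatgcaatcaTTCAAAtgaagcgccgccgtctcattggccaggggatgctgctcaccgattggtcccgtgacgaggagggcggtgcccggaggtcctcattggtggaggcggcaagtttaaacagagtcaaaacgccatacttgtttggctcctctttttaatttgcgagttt

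**Figure D3:**
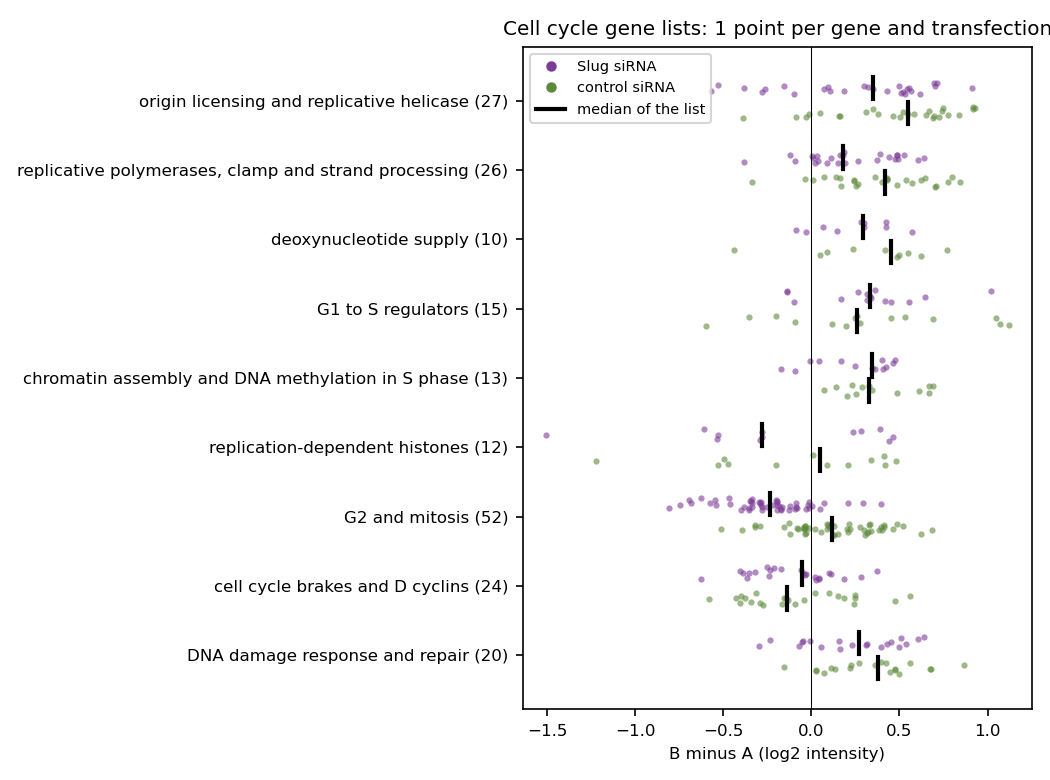
B minus A (log2 intensity) for the members of 9 cell cycle lists, 1 point per gene and transfection, with Slug siRNA above control siRNA in each row and a bar at the median. The medians of licensing genes lie at 0.35 (Slug siRNA) and 0.55 (control siRNA), and those of G2 and mitosis at -0.24 and 0.12.

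A list of 24 cell cycle brakes and D cyclins, which also holds the kinases of the D cyclins, had 13 members lower in B in both transfections and 7 higher in both. These were 54.2% and 29.2% of the list, against 32.1% and 33.5% of all genes. Its median was -0.12, with -0.05 in Slug siRNA cells and -0.14 in control siRNA cells, and its trend count was 1 higher and 4 lower. GADD45A, a growth arrest gene, was -0.63 in Slug siRNA cells and -0.27 in control siRNA cells, TXNIP, an inhibitor of thioredoxin, was -0.25 in Slug siRNA cells and -0.58 in control siRNA cells, and the pocket protein gene RBL2 was -0.24 in Slug siRNA cells and -0.40 in control siRNA cells. CDK4, the kinase of the D cyclins, ran the other way at 0.42 ± 0.13 (SE, limma adjusted p = 0.210). CCND1 differed by 0.15 and the kinase inhibitor genes CDKN1A and CDKN1B by -0.24 and 0.03. Of 23 p53 targets, 10 were lower in both transfections and 3 higher in both (32.1% and 33.5% of all genes). The median was -0.06, against -0.13 within Slug siRNA cells and -0.17 within control siRNA cells, and the trend count was 1 higher and 2 lower. TP53INP1 was -0.67 in Slug siRNA cells and -0.17 in control siRNA cells, and SESN2 was 0.01 in Slug siRNA cells and 0.91 in control siRNA cells, where the A array was below detection.

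The lists of ribosome biogenesis, NRF2 targets and heat shock also had medians above 0. Ribosome biogenesis had a median of 0.13 over 36 genes, with 22 higher in both transfections and 5 lower in both, and a trend count of 4 higher and 0 lower. NOLC1, a chaperone of nucleolar particles, was higher by 0.62 ± 0.14 (SE, limma adjusted p = 0.158), and IPO4, which imports ribosomal proteins and histones, by 0.51. Targets of NRF2 and the pentose phosphate pathway had a median of 0.25 over 16 genes, with 11 higher in both and 2 lower in both, and a trend count of 6 higher and 0 lower. GPX2, a glutathione peroxidase, read 10.80 and 11.57 on the B arrays, against 10.12 and 10.92 on the A arrays. Its difference was 0.66 ± 0.13 (SE, limma adjusted p = 0.149), and B was above A within each transfection with overlap across them. TXNRD1, thioredoxin reductase, was higher by 0.51, while the standard NRF2 target NQO1 differed by -0.13. Of 19 heat shock genes, 14 were higher in both and 0 lower in both, with a median of 0.14 and a trend count of 3 higher and 0 lower. CHORDC1, a co-chaperone of HSP90, was higher by 0.79 and HSPA4 by 0.41.

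Most measured genes of squamous differentiation were also higher in replicate B. Of 52 cornified envelope and keratinocyte genes on the array, 27 were measured, so the rest could not be compared. Of these 15 were higher in both transfections and 6 lower in both, with a median of 0.27, 0.46 in Slug siRNA cells and 0.15 in control siRNA cells. At an unadjusted p under 0.05, 11 were higher and 1 was lower (8.05% and 8.58% of all genes), and under the variance trend 10 were higher and 0 lower (4.21% and 5.39%).

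SPRR3, a small proline-rich precursor of the cornified envelope, read 7.04 and 5.08 on the B arrays, against 5.37 and 4.51 on the A arrays. It was detected on 1 of the 2 A arrays, and its difference was 1.12 ± 0.25 (SE, limma adjusted p = 0.156). Its relative SPRR2D read 8.66 and 8.56 on the B arrays, against 7.14 and 8.09 on the A arrays, a difference of 1.00 ± 0.24 (SE, limma adjusted p = 0.166). The arrays of SPRR2D did not overlap, whereas those of SPRR3 did. A dimmer probe of SPRR2D gave -0.14, and the SPRR2 genes are near-identical copies whose signals may mix. SPRR1A and SPRR1B were higher by 0.40 and 0.40, and TGM1, the transglutaminase that crosslinks the envelope, was 1.01 in Slug siRNA cells and 0.14 in control siRNA cells. The protease gene KLK10 and the keratin gene KRT80 were 0.78 in Slug siRNA cells and 1.10 in control siRNA cells for KLK10, and 0.49 in Slug siRNA cells and 0.95 in control siRNA cells for KRT80. Scaffold genes of the envelope went the other way: PPL (periplakin) and EVPL (envoplakin) were lower, at -0.34 and -0.28. ZNF750, a regulator of terminal differentiation, was lower, at -0.30.

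KRT6C, a keratin of wounded and stressed epithelium, read 11.53 and 10.81 on the B arrays, against 10.43 and 10.29 on the A arrays. All B values were above the A values, with a difference of 0.81 ± 0.17 (SE, limma adjusted p = 0.152). KRT16, a type I keratin paired with keratin 6 in wounds, differed by 0.30, and under the variance trend both of these wound keratins were higher. KRT6C shares most of its sequence with other type II keratin 6 genes, so its signal may include theirs.

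**Figure D4:**
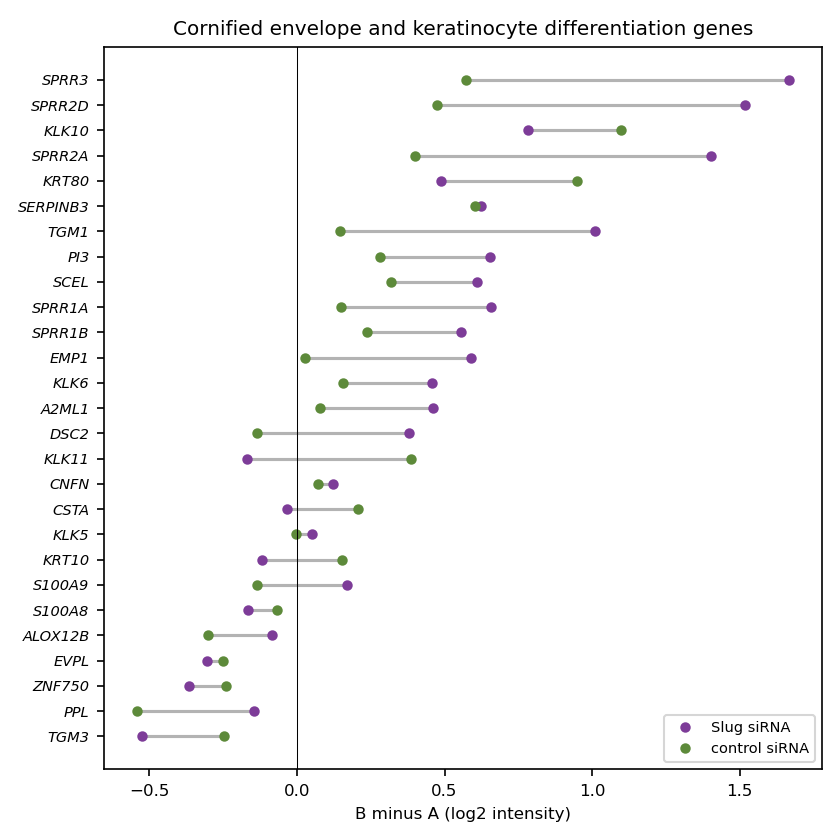
B minus A (log2 intensity) for the 27 measured genes of cornified envelope and keratinocyte differentiation, ordered by their fitted difference, with 1 point per transfection and a grey line between them. SPRR3 and SPRR2D reach 1.67 and 1.52 in Slug siRNA cells, and 0.57 and 0.47 in control siRNA cells.

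Most genes of attachment to the basement membrane were lower in replicate B. Of 20 measured integrin and basement membrane genes, 12 were lower in both transfections and 3 higher in both. The median was -0.20, with -0.15 in Slug siRNA cells and -0.33 in control siRNA cells. At an unadjusted p under 0.05, 7 were lower and 0 higher (8.58% and 8.05% of all genes), and under the variance trend 5 were lower and 0 higher (5.39% and 4.21%). LAMA5, the laminin alpha 5 chain, read 11.41 and 11.30 on the B arrays, against 11.91 and 11.94 on the A arrays. The B arrays were both below the A arrays, with a difference of -0.57 ± 0.14 (SE, limma adjusted p = 0.163). The collagen IV gene COL4A5 read 8.11 and 8.65 on the B arrays, against 8.61 and 9.15 on the A arrays, a difference of -0.50 ± 0.13 (SE, limma adjusted p = 0.177), with B below A within each transfection and overlap across them. ITGB4 and ITGA6, which form the hemidesmosome integrin, were lower, at -0.33 and -0.28. LAMB3, a laminin chain of hemidesmosomal attachment, was higher by 0.26.

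Of 19 basal and myoepithelial genes, 12 were lower in both transfections and 4 higher in both (32.1% and 33.5% of all genes). The median was -0.19, against -0.08 within Slug siRNA cells and -0.15 within control siRNA cells, and the trend count was 1 higher and 3 lower. ACTA2, smooth muscle actin, read 8.57 and 8.90 on the B arrays, against 9.12 and 9.71 on the A arrays, and both B arrays were below both A arrays, with a difference of -0.68 ± 0.14 (SE, limma adjusted p = 0.149). The matrix protein gene SPARC differed by -0.70. KRT14 ran the other way at 0.50, while KRT5 differed by -0.05 and CDH3 by 0.02. Among 15 extracellular proteases and inhibitors, 8 were lower in both and 2 higher in both (32.1% and 33.5% of all genes). The trend count of these genes was 0 higher and 4 lower. Their median was -0.14, with -0.06 in Slug siRNA cells and -0.25 in control siRNA cells. The plasminogen activator gene PLAT read 11.52 and 12.12 on the B arrays, against 12.08 and 12.67 on the A arrays, a difference of -0.55 ± 0.13 (SE, limma adjusted p = 0.164) with B below A within each transfection and overlap across them, and MMP7, matrilysin, was lower, at -0.54.

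The luminal and mesenchymal lists had medians of 0.01 over 20 genes and -0.03 over 13, with members on both sides. Within Slug siRNA and control siRNA cells the medians were 0.01 and 0.03 for luminal genes and -0.06 and -0.01 for mesenchymal genes, and the trend counts were 2 higher and 3 lower, and 1 higher and 3 lower. PROM1 (CD133) was -0.68 in Slug siRNA cells and -1.22 in control siRNA cells, where the B array was below detection, and CD24, a surface glycoprotein, was 1.25 in Slug siRNA cells and 0.29 in control siRNA cells. Vimentin, VIM, read 9.70 and 11.30 on the B arrays, against 10.31 and 12.02 on the A arrays. Within each transfection B was below A, with a fitted difference of -0.66 ± 0.13 (SE, limma adjusted p = 0.149), but the replicates overlapped across transfections. COL8A1, a short-chain collagen, was lower, at -0.53, and THBS1, thrombospondin, was higher by 0.47. SNAI2, the gene targeted by the siRNA, differed between replicates by -0.06 in Slug siRNA cells and 0.06 in control siRNA cells.

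In signalling, 9 of 15 Notch genes were lower in replicate B in both transfections and 1 was higher in both (32.1% and 33.5% of all genes). Their median was -0.16. At an unadjusted p under 0.05, 3 were lower and 0 higher (8.58% and 8.05% of all genes). The trend count was 0 higher and 2 lower (4.21% and 5.39%). NOTCH1 read 9.88 and 10.03 on the B arrays, against 10.33 and 10.47 on the A arrays, without overlap, and differed by -0.45 ± 0.13 (SE, limma adjusted p = 0.193). HEY2, a Notch target, was lower, at -0.53, while the ligand JAG1 differed by 0.09. The inflammatory list had a median of 0.13 over 18 genes, with 0.09 in Slug siRNA cells and 0.23 in control siRNA cells. Of its members 8 were higher in both and 4 lower in both (33.5% and 32.1% of all genes). At an unadjusted p under 0.05, 6 were higher and 2 lower (8.05% and 8.58% of all genes), and the trend count was also 6 higher and 2 lower.

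CXCL8, the neutrophil chemokine IL-8, read 12.09 and 12.39 on the B arrays, against 11.13 and 11.63 on the A arrays. Both B arrays were above both A arrays, by 0.86 ± 0.14 (SE, limma adjusted p = 0.142). PTGS2, cyclooxygenase 2, differed by 0.84 ± 0.14 (SE, limma adjusted p = 0.142). The cytokine genes IL1A and IL1B were higher by 0.74 and 0.64 and the chemokine CCL20 by 0.76, but the NF-kB inhibitor gene NFKBIA was lower, at -0.37.

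YAP and TAZ targets had a median of 0.00 over 20 genes, with -0.02 within Slug siRNA cells and -0.01 within control siRNA cells. Of them 6 were higher in both and 6 lower in both, 30% each, near the shares of all genes (33.5% and 32.1%). The trend count was 4 higher and 1 lower. CCN1, a matrix signal protein, was higher by 0.95 ± 0.14 (SE, limma adjusted p = 0.126) without overlap, while CCN2 was 0.07 in Slug siRNA cells and 0.47 in control siRNA cells and ANKRD1 0.49 in Slug siRNA cells and -0.54 in control siRNA cells. ANKRD1 was detected on only 1 B and 1 A array, which held different transfections. The 26 immediate early and ERK feedback genes had a median of 0.02, with 0.01 in Slug siRNA cells and 0.02 in control siRNA cells, and a trend count of 4 higher and 1 lower. The phosphatase genes DUSP5 and DUSP4 differed in opposite directions, DUSP5 by 0.60 and DUSP4 by -0.72. The 13 TGF-beta and BMP genes had a median of -0.01, against -0.05 within Slug siRNA cells and -0.09 within control siRNA cells, and a trend count of 1 higher and 3 lower. ID2 and TGFBR3 were lower, at -0.70 and -0.72, and ID3 was higher by 0.49. The 23 interferon genes had a fitted median of 0.14, but 0.01 within Slug siRNA cells and 0.02 within control siRNA cells. Of them 9 were higher in both and 7 lower in both (39.1% and 30.4%, against 33.5% and 32.1% of all genes). The trend count was 1 higher and 3 lower, with ISG15 higher by 0.82 and IRF9 at -0.77.

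The other lists of metabolism and stress lay near 0. Cholesterol and fatty acid synthesis (26 genes) had a median of 0.04, hypoxia and glycolysis (30) -0.04, the unfolded protein response (14) 0.03, the ATF4 response (22) 0.07, lysosome and autophagy (20) -0.04, oxidative phosphorylation (37) 0.00 and metallothioneins (6) -0.07. Within single transfections these medians lay between -0.10 and 0.10. The trend counts, higher then lower, were 2 and 3 for cholesterol and fatty acid synthesis, 1 and 3 for hypoxia and glycolysis, 0 and 0 for the unfolded protein response, 2 and 0 for the ATF4 response, 0 and 2 for lysosome and autophagy, 2 and 0 for oxidative phosphorylation, and 1 and 2 for metallothioneins. Single members stood out from them. SREBF1, a master regulator of lipid synthesis, differed by -0.54, and the sterol isomerase EBP was higher by 0.52. ADM, the peptide adrenomedullin, was higher by 0.94 in Slug siRNA cells and 0.63 in control siRNA cells. MT1G, a metal-binding metallothionein, was lower, at -0.58, and SLC30A1, a zinc exporter, was higher by 0.43 on the probe used and differed by -0.12 on a dimmer one. The cystine transporter SLC7A11 was not above background on either A array. It was at least 1.44-fold higher in B, taking the dimmest detected probe of each A array as the limit. SLC7A11 was kept only because both B arrays detected it, so its direction was fixed by that rule. It is 1 of the 2 in the ATF4 trend count.

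**Figure D5:**
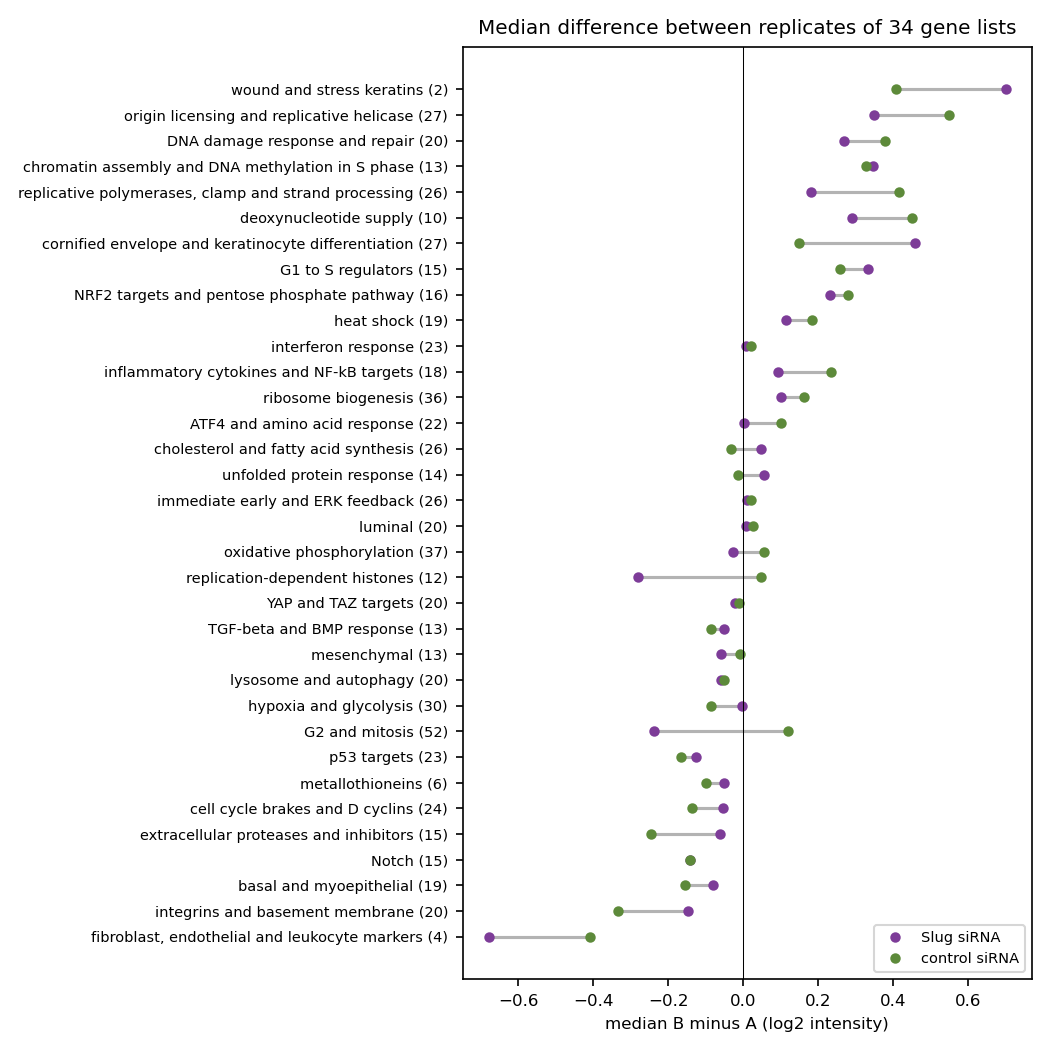
Median B minus A (log2 intensity) of each of 34 gene lists in Slug siRNA cells and in control siRNA cells, ordered by the median of the fitted differences, with the number of measured members in brackets. Lists of S phase other than histones, wound keratins and the cornified envelope lie to the right of 0 in both transfections. Integrins, basal genes, Notch, proteases and markers of other cell types lie to the left, and histones lie at -0.28 (Slug siRNA) and 0.05 (control siRNA).

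The 12 named genes with the largest higher values spanned several functions. IL7R, a cytokine receptor, read 6.41 and 6.12 on the B arrays, against 4.96 and 5.03 on the A arrays, a difference of 1.27 ± 0.15 (SE, limma adjusted p = 0.116). FOXQ1, a forkhead transcription factor, read 9.41 and 9.32 on the B arrays, against 8.35 and 8.07 on the A arrays, a difference of 1.15 ± 0.14 (SE, limma adjusted p = 0.116). Neither overlapped. With E2F2 and GDPD3, a lysophospholipase D that was 1.17 in Slug siRNA cells and 1.30 in control siRNA cells, they were the 4 genes at least 2-fold higher in both transfections. Their size depended on the processing. Over the alternatives that give a test, the difference fell as low as 0.44 for IL7R, 0.69 for E2F2, 0.79 for GDPD3 and 0.94 for FOXQ1. The A arrays of IL7R lay close to the dimmest detected probes, at 4.94 (Slug siRNA) and 4.95 (control siRNA).

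FST, follistatin, was 0.88 in Slug siRNA cells and 1.42 in control siRNA cells, and DTL, an adaptor that marks CDT1 for destruction in S phase, was 0.83 in Slug siRNA cells and 1.10 in control siRNA cells. FIGNL1, a recombination factor, was 1.01 in Slug siRNA cells and 0.99 in control siRNA cells, where the A array was below detection, and IL13RA2, a decoy receptor, was 1.17 in Slug siRNA cells and 0.99 in control siRNA cells. The 2 highest fitted differences, 1.77 for C6orf52 and 1.62 for SLC4A5, rested on the A array with control siRNA, where both were below detection. In Slug siRNA cells they differed by 0.48 and 0.22.

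Among the 12 with the largest lower values, DBP, a transcription factor of circadian output, read 4.86 and 4.92 on the B arrays, against 6.11 and 6.31 on the A arrays. The groups did not overlap, and the difference was -1.32 ± 0.14 (SE, limma adjusted p = 0.116). DBP was detected on 1 of the 2 B arrays. TSC22D3, known as a glucocorticoid-induced gene, read 9.49 and 9.37 on the B arrays, against 10.61 and 10.71 on the A arrays, a difference of -1.23 ± 0.14 (SE, limma adjusted p = 0.116). All 3 of its probes were lower, and its adjusted p ran from 9.18e-19 to 0.669 over the alternatives.

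CX3CL1, the membrane-bound chemokine fractalkine, was -1.45 in Slug siRNA cells and -1.08 in control siRNA cells, CAPN6, a calpain family member, was -1.01 in Slug siRNA cells and -1.52 in control siRNA cells, and SCRG1 was -0.61 in Slug siRNA cells and -1.94 in control siRNA cells. PIF1, a DNA helicase, and PAN2, a deadenylase, were at -1.11 and -1.18, with PAN2 below detection on the B array of Slug siRNA cells, LIME1, an adaptor of lymphocyte signalling, at -1.06, and ZNF467, a zinc finger gene, at -1.05. GOLGA8B and NPIPA1 were lower, at -1.14 and -1.14, and both belong to families of near-identical copies whose signals may mix. The 10 genes at least 2-fold lower in both transfections were H2BC21, DBP, CAPN6, CX3CL1, TSC22D3, H19, GOLGA8B, EZR-AS1, NPIPA1 and LIME1. Of these, EZR-AS1 was below detection on the B array of Slug siRNA cells. Over the alternatives that give a test, the difference shrank to -0.43 for NPIPA1, -0.45 for DBP and -0.49 for LIME1. For TSC22D3 it shrank only to -1.12. H19, an imprinted RNA that codes for no protein, read 6.91 and 6.30 on the B arrays, against 8.24 and 7.37 on the A arrays, without overlap.

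Of 4 measured markers of other cell types, 3 were lower in replicate B in both transfections, and FAP, a fibroblast protease, was 0.21 in Slug siRNA cells and -0.37 in control siRNA cells. Of 18 fibroblast, endothelial and leukocyte markers on the array, 3 were detected on each B array, and 5 (Slug siRNA) and 4 (control siRNA) on the A arrays. The summed intensity of the 4 measured was 1230 and 1244 on the B arrays, against 1951 and 1539 on the A arrays. The largest part of this sum came from CD14, a leukocyte marker with a mean log2 intensity of 9.91. CD14 was -0.73 in Slug siRNA cells and -0.21 in control siRNA cells. Whether cells of these other types were present in the cultures was not tested. COL1A1, the fibroblast collagen, was not above background on either B array and was at least 1.49-fold lower in B. COL1A1 was kept only because both A arrays detected it, so its direction was fixed by that rule. PECAM1, an endothelial adhesion gene that was detected on all 4 arrays, was -0.62 in Slug siRNA cells and -0.44 in control siRNA cells. Under the variance trend 3 of the 4, COL1A1 among them, were lower and 0 higher (5.39% and 4.21% of all genes). Their part in the lower values of the integrin, basal and mesenchymal lists was not tested.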

How the data were processed

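Expression was measured on 4 Illumina bead arrays, grouped by the replicate letter of their titles. Each probe had a deposited mean intensity over its beads, not normalized per the file headers, with a detection p-value, a bead standard error and a bead number; 8 further columns were not used. A second deposited table held the authors' normalized intensities, used as an alternative only; its method is not given in the sources used here.

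Intensities were processed in R 4.3.3 with limma 3.58.1: normal-exponential background correction from detection p-values, offset 16, quantile normalization and log2. Probes with detection p under 0.05 on at least 2 arrays were kept (19446 of 47323), and each of 11200 genes took its kept probe with the highest mean. A gene detected only on the 2 arrays of 1 letter entered through that letter, so its direction was fixed by this filter. The list counts include such genes. Of 30113 probes with 1 gene symbol in the platform annotation, 30074 matched RefSeq (GRCh38.p14), and 17202 had none. The fit (lmFit, eBayes) had transfection and replicate letter as terms, 1 residual and 5.62 prior degrees of freedom, and Benjamini-Hochberg adjustment over all kept probes. Leaving out 1 array leaves no residual degree of freedom, and an exact permutation test of 1 gene cannot give a p below 0.333.

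Promoter sequences came from RefSeq. Figures were drawn with matplotlib 3.10.9. On simulated data of the same 4-array design with 19446 probes, the fit recovered 3.2% of probes shifted by 0.5 (log2), 74.4% of those shifted by 1, 98.2% at 1.5 and 100% at 2, with 18.1 false calls among 156 on average. Simulated probes varied independently, with equal shifts in both transfections, and recovery depended on how many probes were shifted. In the data, H2BC21 at -1.37 was not called (limma adjusted p = 0.116). These shares are therefore not the power of the comparison made here.

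The comparison, members, gene lists and naming rule were chosen with earlier results of these data known. The rule named MCM2, PCNA, CCNE1 and POLE2; the 12 protein-coding genes with the largest higher and the 12 with the largest lower difference, taken first from those past the threshold, that had detection p-values under 0.01 on both of the higher letter's arrays and had the same sign in both transfections; and from each of 34 lists up to 4 members past the threshold, or otherwise the 2 with the largest difference. Other genes were named after their values were seen, as members of a list.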

Additional observations from a re-analysis of the deposited data

Results flagged for a closer look

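In 5 gene lists the median difference between replicates B and A had opposite signs in the 2 transfections. The difference between transfections was not tested, since the interaction has no residual degree of freedom. For genes of G2 and mitosis the median was -0.24 in Slug siRNA cells and 0.12 in control siRNA cells, a gap of -0.3561. For replication-dependent histones it was -0.28 and 0.05, a gap of -0.3273. The other 3 gaps, Slug siRNA minus control siRNA, were smaller: -0.08375 for oxidative phosphorylation, 0.08071 for cholesterol and fatty acid synthesis and 0.0684 for the unfolded protein response.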

How the results depend on the processing

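The number of genes called between replicates was 0 in each direction in the fit used, with median scaling, with the authors' normalized table, without a filter on dim probes, with the mean over a gene's probes and without the transfection term. It was 637 higher and 782 lower in B without background correction, 362 and 493 with an offset of 50, 325 and 433 with detection p under 0.01 on all arrays, and 471 and 604 with a prior variance trend. At least 2-fold in both transfections were 4 and 10. Leaving out 1 array without the transfection term gave 0 to 3 higher, with 3 when the A array with Slug siRNA was left out, and 0 lower. The prior degrees of freedom moved with these settings, to 95.8 without background correction, 36.3 with the offset of 50, 18 with the stricter filter and 89.6 with the trend. Slug siRNA calls in the same fit, 361, were 2026 without background correction, 1561 with the offset of 50, 158 with the authors' table and 19 without a filter. All 88 named genes kept their sign under every alternative run, and 82 passed the threshold without background correction, 79 with the offset of 50 and 64 of 73 under the stricter filter. The genes named for the largest higher and lower differences had to have the same sign in both transfections. With 1 array left out, their sign was therefore fixed by the naming rule. Most other named genes were picked for the size of their difference, so a kept sign says little about them. The licensing and helicase median, 0.49, was 0.29 without background correction. Of the 34 list medians, 9 changed sign under at least 1 alternative. Those of inflammatory genes without a filter (-0.0285, against 0.13) and of lysosome genes with median scaling (0.0101, against -0.04) were 2 of these. Leaving out 1 array leaves the difference of the other transfection alone, and 5 medians then changed sign: G2 and mitosis (-0.24 to 0.12, against -0.05), histones (-0.28 to 0.05, against 0.00), cholesterol synthesis (-0.03 to 0.05, against 0.04), oxidative phosphorylation (-0.03 to 0.06, against 0.00) and the unfolded protein response (-0.01 to 0.05, against 0.03). TGF-beta and YAP targets, with medians of -0.01 and 0.00, turned to 0.03 and 0.02 with median scaling. With 1 array left out, 23 medians changed sign or moved by over 1.5 times, and 16 moved by more than the SD between transfections. Why these medians moved was not tested. The letters B and A have 2 arrays each, and transfection is already the term that pairs them; without that term no call changed.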

Other observations

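Clock genes and glucocorticoid-induced genes were looked at after the values of DBP and TSC22D3 had been seen, so their counts are a description with no test. The counts include DBP and TSC22D3 themselves. Of 15 measured circadian clock genes of 19 listed, 8 were lower in replicate B in both transfections and 3 higher in both (32.1% and 33.5% of all genes). The median was -0.27, and the trend count was 0 higher and 3 lower (4.21% and 5.39% of all genes). PER2, a repressor of the clock, read 8.32 and 8.04 on the B arrays (Slug siRNA, then control siRNA), against 9.09 and 8.71 on the A arrays, without overlap. CIART, another repressor, differed by -0.52, and the DBP relative TEF by -0.40. Both were dim on the B arrays, at 4.98 and 4.97 for CIART and 5.11 and 5.12 for TEF. The dimmest detected probes of those arrays read 4.94 and 4.91. Neither gene passed under the variance trend (limma adjusted p = 0.147 and 0.304). The core activators CLOCK and BMAL1 differed by -0.03 and 0.03, and CRY1 by 0.32. Of 15 measured glucocorticoid-induced genes of 18 listed, 10 were lower in both transfections and 2 higher in both, against the same shares of all genes. The median was -0.14, and the trend count was 1 higher and 3 lower. KLF9 differed by -0.41 and SGK1 by -0.38, while the standard target FKBP5 differed by -0.12 and DUSP1 by 0.45. PER1, held by both lists, was 0.56 in Slug siRNA cells and -0.47 in control siRNA cells, where the B array was below detection.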
